A study of Mus musculus with 3 samples.

Results

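The growth hormone receptor, STAT5 and IGF-1 axis of the mouse liver was followed through 10 genes: the receptor gene Ghr, the transcription factor genes Stat5a and Stat5b, the feedback inhibitor genes Socs2 and Cish, the secreted products Igf1 and Igfals, and the transcription factor genes Bcl6, Cux2 and Onecut1. They are 10 of the 41799 genes in the deposited tables and were taken by symbol. The genes were chosen by their role and selected on the counts of these same libraries, which had been seen when the list was drawn up, so their levels and ratios are given as a description, without a test. Gene expression had been measured by RNA sequencing of total RNA in 3 liver libraries, 1 per group, from male C57BL/6 mice aged 14 weeks that weighed 24 ± 2 g. The groups were mice on a high-fat diet (HFD) that received DfCS-Ib, a sulfated oligosaccharide by the study's design text, by oral gavage at 40 mg/kg in 0.3 ml of distilled water; mice on the HFD alone; and mice on regular chow. All had free access to food and water and the labels name no genetic change. The labels put 8 mice in each group, call the HFD group a negative control, and do not say whether it received gavage, how long the diets lasted or how many mice gave the RNA of a library.

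Growth hormone reaches the liver in pulses from the pituitary, and binding to its receptor activates the receptor-bound kinase JAK2, which phosphorylates STAT5A and STAT5B. Phosphorylated STAT5 enters the nucleus and binds a palindromic element, and its targets include Igf1, the gene of the main circulating growth factor, and Socs2 and Cish, whose products dampen the same signal. In rodents the timing of the pulses differs between the sexes, and STAT5B together with BCL6, CUX2 and ONECUT1 takes part in keeping many liver genes at different levels in males and females.

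The element that STAT5 recognises has the core TTCNNNGAA, which is its own reverse complement, and BCL6 recognises a related sequence. It was searched for in promoter windows from RefSeq on build GRCm38.p6, each running from 250 bases before to 50 bases after a transcription start. The table held 16 windows for 9 of the 10 genes and none for Socs2, and the core was in 5 windows of 3 genes: Cish, Igfals and Bcl6. Of all 32851 windows in the table, 8.30% held it and 0.457% held 2 or more. These 5 windows are shown, 5′ to 3′ on the strand of the gene, because their genes are a feedback target, a secreted product and a repressor of the axis, and the capitals mark the core.
Cish, chr9:107296409-107296708, plus strand: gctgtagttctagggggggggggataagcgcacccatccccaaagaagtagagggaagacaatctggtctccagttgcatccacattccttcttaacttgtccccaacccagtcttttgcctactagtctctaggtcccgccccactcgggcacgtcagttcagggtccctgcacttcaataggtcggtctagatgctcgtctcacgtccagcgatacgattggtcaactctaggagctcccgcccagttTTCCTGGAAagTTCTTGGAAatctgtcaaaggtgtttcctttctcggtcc
Igfals, chr17:24877594-24877893, plus strand: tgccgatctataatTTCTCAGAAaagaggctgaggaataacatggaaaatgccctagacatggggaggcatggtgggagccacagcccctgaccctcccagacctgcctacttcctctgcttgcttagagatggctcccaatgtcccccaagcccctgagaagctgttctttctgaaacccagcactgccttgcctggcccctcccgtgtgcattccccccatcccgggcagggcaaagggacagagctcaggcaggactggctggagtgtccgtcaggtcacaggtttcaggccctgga
Igfals, chr17:24877981-24878280, plus strand: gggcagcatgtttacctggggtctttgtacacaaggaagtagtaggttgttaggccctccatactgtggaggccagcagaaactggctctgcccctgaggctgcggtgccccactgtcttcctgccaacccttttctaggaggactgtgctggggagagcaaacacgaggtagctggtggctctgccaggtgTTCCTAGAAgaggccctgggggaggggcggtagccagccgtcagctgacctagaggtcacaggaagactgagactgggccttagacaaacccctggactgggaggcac
Bcl6, chr16:23981234-23981533, minus strand: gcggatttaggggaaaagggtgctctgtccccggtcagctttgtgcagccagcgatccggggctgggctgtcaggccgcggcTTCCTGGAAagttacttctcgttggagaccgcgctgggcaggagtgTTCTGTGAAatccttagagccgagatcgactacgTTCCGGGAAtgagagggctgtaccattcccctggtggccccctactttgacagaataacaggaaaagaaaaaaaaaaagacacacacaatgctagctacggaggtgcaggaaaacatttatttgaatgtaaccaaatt
Bcl6, chr16:23988803-23989102, minus strand: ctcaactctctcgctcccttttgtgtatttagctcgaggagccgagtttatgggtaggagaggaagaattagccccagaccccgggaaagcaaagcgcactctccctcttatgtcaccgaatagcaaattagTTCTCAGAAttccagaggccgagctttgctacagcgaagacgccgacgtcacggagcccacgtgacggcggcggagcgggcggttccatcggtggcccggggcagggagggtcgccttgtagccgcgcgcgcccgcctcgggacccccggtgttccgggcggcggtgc
The Cish window held 2 cores that began at the start base and 11 bases after it, TTCCTGGAA and TTCTTGGAA. The Bcl6 window at the more internal start held 3 cores, 168, 122 and 88 bases before the start, but the 50 bases after that RefSeq start were not found in the Bcl6 transcripts of GENCODE vM21, so the start is uncertain. The other Bcl6 window held 1 core, 118 bases before its own start. The Igfals windows held 1 each, 236 and 58 bases before their starts. A match describes these letters and is not evidence of binding, and enhancers outside the windows were not read. ATCAAT, a core bound by ONECUT1 and CUX2, was searched on both strands and was in 0 of the 16 windows, against 7.54% of all windows. The related ATCGAT was in 1 window, of Cux2, against 0.925% of all.

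The libraries held 10969699 counts in the DfCS-Ib library, 12279537 in the HFD library and 11028671 in the chow library. Levels are given as counts and as CPM, the usual count relative to the library total, after scaling between libraries. A ratio of scaled counts carries a 95% exact interval for counting error only, since with 1 library per group no spread between animals can be estimated and no difference was tested. Genes whose mean level reached 1 CPM were compared, and they include all 10 genes of the axis among 13153 in total. A gene was counted as at least 2-fold apart on log2(CPM + 1). The 6 hepatocyte markers, among them Alb and Apoa1, summed to 115139 CPM in the DfCS-Ib library, 103451 CPM in the HFD library and 131729 CPM in the chow library. Most of this was Alb, at 93946, 85030 and 112771 CPM in the same libraries. The markers did not all go with the sum: on the log2 scale 5 were above 0 in DfCS-Ib against HFD, and 2 were above 0 in HFD against chow. Of the 5 exocrine pancreas markers 4 were listed at 0 in every library.

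**Figure D1:**
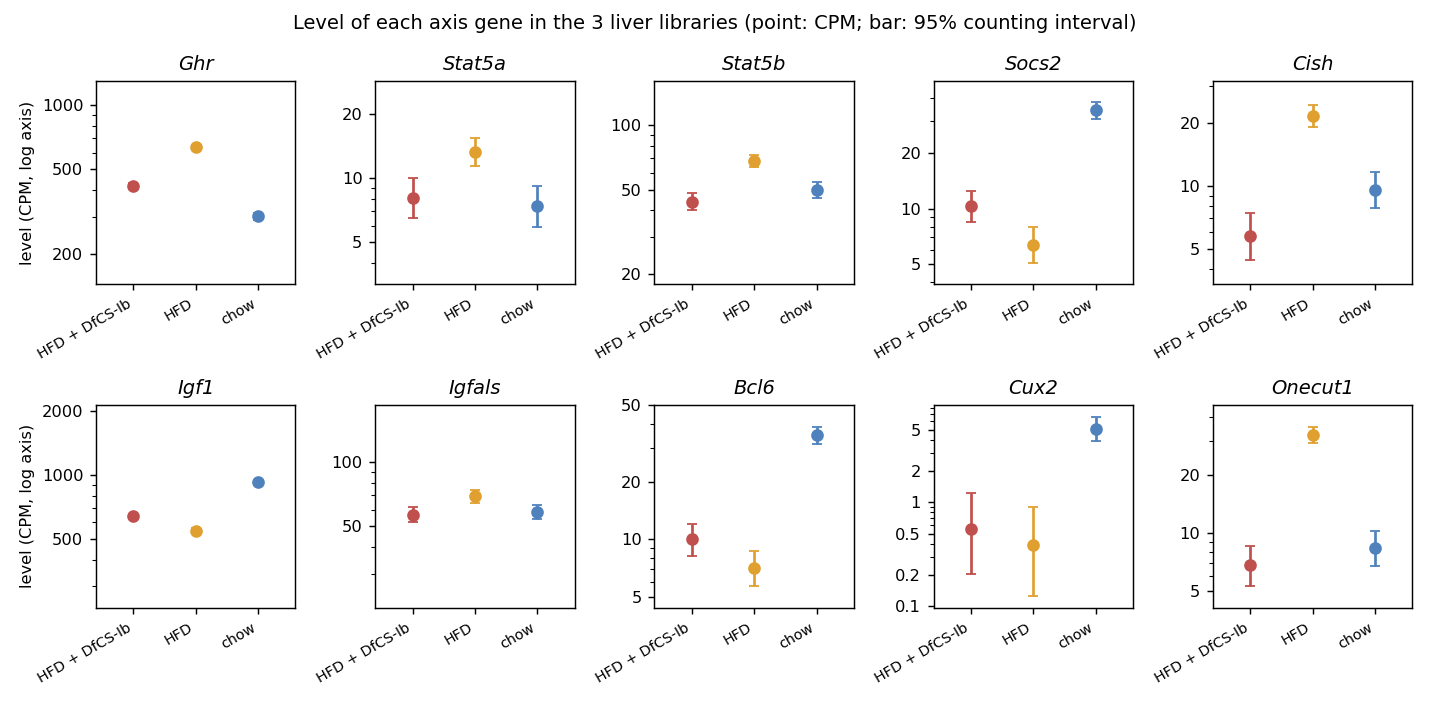
Level of each of the 10 genes in the DfCS-Ib, HFD and chow libraries, in CPM on log axes; points are single libraries and bars are 95% exact intervals for counting error. The highest library was HFD for 6 genes and chow for 4, and Cux2 rests on 6 and 5 counts in the DfCS-Ib and HFD libraries.

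The 6 genes highest in the HFD library were Ghr, Stat5a, Stat5b, Cish, Igfals and Onecut1, and the 4 highest in the chow library were Socs2, Igf1, Bcl6 and Cux2. The DfCS-Ib library was highest for 0 of the 10. Receptor and STAT5 transcripts were thus highest where Igf1 and Socs2 were lowest. Onecut1 in the HFD library, and Bcl6 and Cux2 in the chow library, were at least 2-fold apart from both other libraries while those lay within 1.5-fold of each other. Of the 30 ratios between libraries, 26 had an interval that left out 1.

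In the DfCS-Ib library against the HFD library, 0 of the 10 genes were at least 2-fold higher and 2 were at least 2-fold lower, Cish and Onecut1, with a median log2 ratio of -0.44. Over all genes, 2.46% were higher and 2.02% lower, 4.49% in all, with a median of -0.01. In the HFD library against the chow library, 3 were higher (Ghr, Cish and Onecut1) and 3 lower (Socs2, Bcl6 and Cux2), with a median of 0.34. Over all genes, 3.47% were higher and 2.27% lower, 5.74% in all, with a median of 0.02. In the DfCS-Ib library against the chow library, 0 were higher and 3 lower, again Socs2, Bcl6 and Cux2, with a median of -0.40. Over all genes, 1.62% were higher and 0.433% lower, 2.05% in all, with a median of 0.00. The list was drawn up from these contrasts, so nothing is read from its counts, and the comparisons share libraries.

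**Figure D2:**
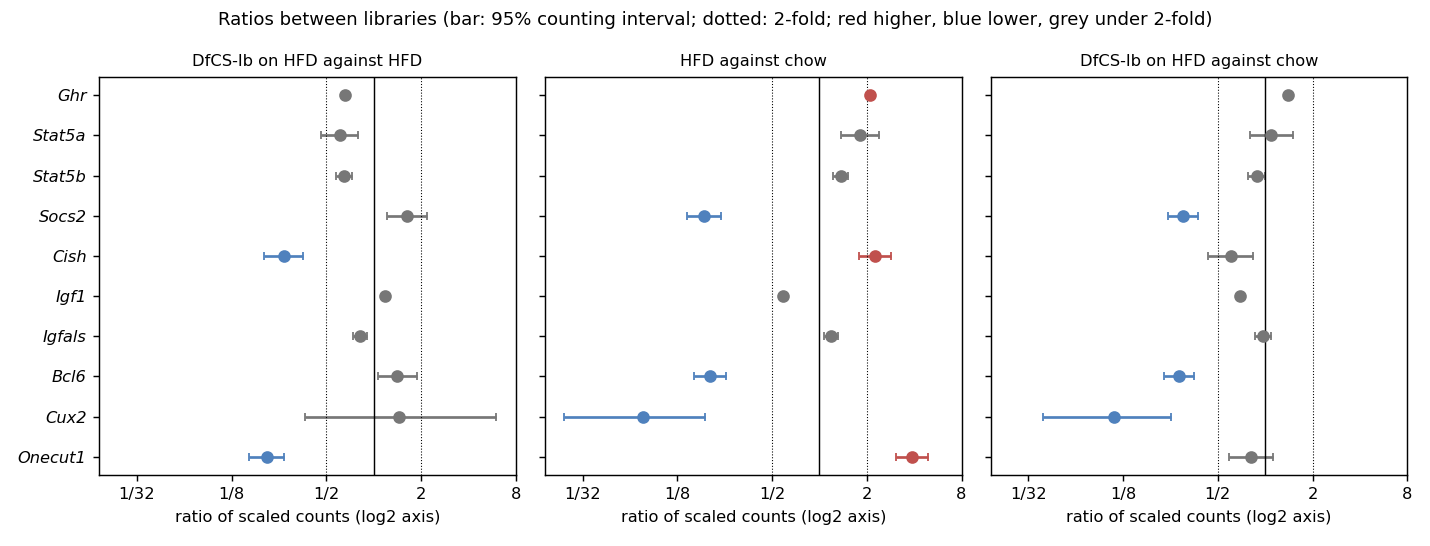
Ratio of scaled counts for each of the 10 genes in the 3 comparisons (DfCS-Ib against HFD, HFD against chow, DfCS-Ib against chow) on a log axis, with 95% exact intervals for counting error. Cish and Onecut1 lie at least 2-fold below 1 in DfCS-Ib against HFD, and Socs2, Bcl6 and Cux2 lie at least 2-fold below 1 in both comparisons with chow.

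Ghr, the growth hormone receptor gene on the minus strand of chromosome 15 (3317755 to 3583527, mm10), had 4487 counts or 418 CPM in the DfCS-Ib library, 8157 counts or 634 CPM in the HFD library and 3237 counts or 301 CPM in the chow library. Its level stood clearly highest on HFD, with the DfCS-Ib library between the others and no overlap of the counting intervals. It was 1.52-fold lower in DfCS-Ib than in HFD (1.46 to 1.57), 2.11-fold higher in HFD than in chow (2.02 to 2.20) and 1.39-fold higher in DfCS-Ib than in chow (1.33 to 1.46). In whole liver, fewer cells of a type and less RNA per cell cannot be told apart. On the deposited RPKM, which divides by gene length, Ghr stood at 81.4 in the DfCS-Ib library, 132 in the HFD library and 58.4 in the chow library.

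Stat5a and Stat5b, adjacent genes on chromosome 11 (100859180 to 100885169, plus strand, and 100780731 to 100859004, minus strand), encode the closely related factors that the receptor activates. Stat5b, the more abundant in liver, had 471 counts or 43.9 CPM in the DfCS-Ib library, 875 counts or 68.0 CPM in the HFD library and 536 counts or 49.8 CPM in the chow library. Stat5a had 87 counts or 8.11 CPM in the DfCS-Ib library, 172 counts or 13.4 CPM in the HFD library and 80 counts or 7.43 CPM in the chow library. For both genes the HFD library stood above the other libraries, which lay near each other. In DfCS-Ib against HFD, Stat5b was 1.55-fold lower (1.38 to 1.74) and Stat5a 1.65-fold lower (1.27 to 2.16), and in HFD against chow they were 1.37-fold (1.22 to 1.52) and 1.80-fold higher (1.37 to 2.37). In DfCS-Ib against chow, Stat5b was 1.13-fold lower with an interval that barely left out 1 (1.001 to 1.29), and the Stat5a ratio of 1.09 had an interval that held 1 (0.796 to 1.497).

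Per deposited length, there were 4.69 Stat5b reads for each Stat5a read in the DfCS-Ib library, 4.41 in the HFD library and 5.80 in the chow library. As plain counts this ratio was 5.41 (4.30 to 6.89) in the DfCS-Ib library, 5.09 (4.32 to 6.03) in the HFD library and 6.70 (5.29 to 8.58) in the chow library, with intervals that overlapped, so the balance of the pair was not distinguishable between libraries at this depth. The genes are near copies in part: 10.8% of the 50-base windows of the longest Stat5a transcript were also in Stat5b transcripts, and 11.8% the other way, and how reads with several placements were counted is not given in the sources used here.

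The feedback inhibitors were ordered differently over the libraries. Socs2, on the minus strand of chromosome 10 (95383903 to 95417253), encodes a suppressor of cytokine signalling that limits growth hormone signalling, and mice without it grow large. It had 111 counts or 10.3 CPM in the DfCS-Ib library, 82 counts or 6.37 CPM in the HFD library and 369 counts or 34.3 CPM in the chow library. Chow stood far above both HFD libraries. Socs2 was 1.62-fold higher in DfCS-Ib than in HFD (1.21 to 2.19), 5.38-fold lower in HFD than in chow (4.23 to 6.92) and 3.31-fold lower in DfCS-Ib than in chow (2.67 to 4.14). A gene model on the opposite strand overlaps Socs2 and had 4, 3 and 3 counts in the DfCS-Ib, HFD and chow libraries.

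Cish, on the plus strand of chromosome 9 (107296685 to 107301962), encodes another inhibitor of the same family that STAT5 induces, and its promoter is the first of those shown. It had 62 counts or 5.78 CPM in the DfCS-Ib library, 278 counts or 21.6 CPM in the HFD library and 103 counts or 9.57 CPM in the chow library. Here HFD was the highest library and DfCS-Ib the lowest. Cish was 3.74-fold lower in DfCS-Ib than in HFD (2.83 to 5.01), 2.26-fold higher in HFD than in chow (1.79 to 2.86) and 1.66-fold lower in DfCS-Ib than in chow (1.20 to 2.31). Of the 50-base windows of its longest transcript, 13.2% were also in other gene models, chiefly Gm17041, so part of its count is uncertain.

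Set against each other inside a library, where scaling between libraries plays no part, there were 0.559 Cish counts per Socs2 count in the DfCS-Ib library (0.403 to 0.769), 3.39 in the HFD library (2.64 to 4.39) and 0.279 in the chow library (0.222 to 0.348). The 3 intervals were apart, with HFD highest and chow lowest. These ratios compare libraries; which of the genes had more transcript depends on the lengths taken for them. The other family members on the signalling list were sparse, differed less or went otherwise. Socs1 had 3, 1 and 3 counts in the DfCS-Ib, HFD and chow libraries, at or under the floor of 3 counts. Socs7 had 285, 279 and 268 counts, or 26.6, 21.7 and 24.9 CPM, in the same libraries. It was 1.23-fold higher in DfCS-Ib than in HFD (1.04 to 1.45), and both intervals against chow held 1. Socs3, an inhibitor induced by several cytokines, had 150 counts in the DfCS-Ib library, 53 in the HFD library and 86 in the chow library, and so was highest where Cish was lowest. It was 1.94-fold lower in HFD than in chow (1.36 to 2.79) and 1.75-fold higher in DfCS-Ib than in chow (1.33 to 2.31).

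**Figure D3:**
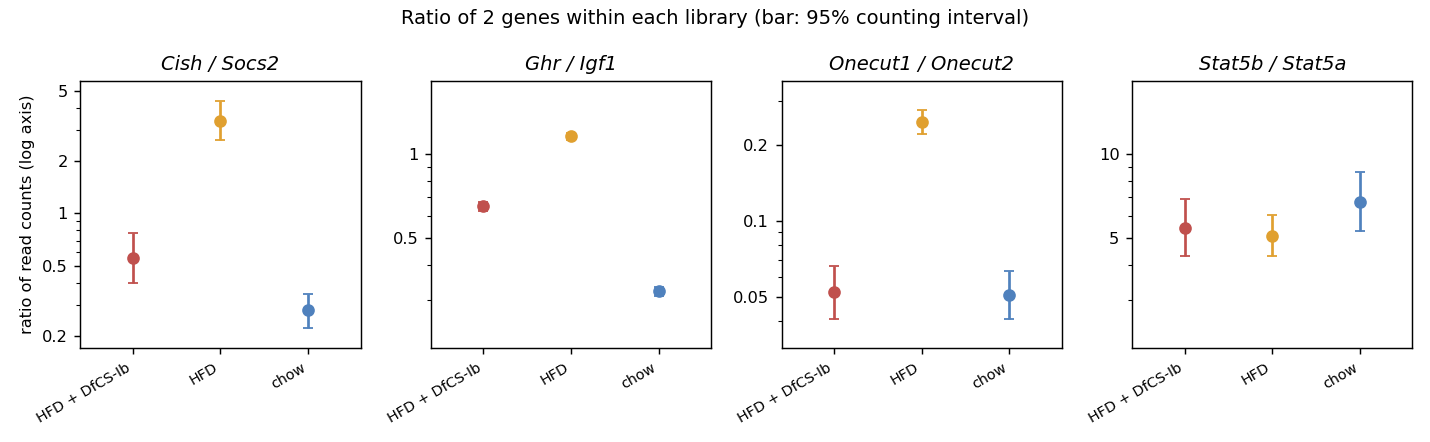
Ratio of read counts of 2 genes inside each library (DfCS-Ib, HFD, chow) on log axes, with 95% exact intervals for counting error. The HFD library is highest for Cish over Socs2 (3.39), Ghr over Igf1 (1.15) and Onecut1 over Onecut2 (0.248), while the Stat5b over Stat5a intervals overlap.

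The secreted products of the axis differed less between libraries than its inhibitors. Igf1, on the plus strand of chromosome 10 (87858270 to 87937047), encodes insulin-like growth factor 1, most of whose circulating pool is made by the liver. It had 6900 counts or 643 CPM in the DfCS-Ib library, 7063 counts or 549 CPM in the HFD library and 10038 counts or 933 CPM in the chow library. Chow was highest and HFD lowest, the reverse of Ghr. Igf1 was 1.17-fold higher in DfCS-Ib than in HFD (1.13 to 1.21), 1.70-fold lower in HFD than in chow (1.65 to 1.75) and 1.45-fold lower in DfCS-Ib than in chow (1.41 to 1.496). On the deposited RPKM it stood at 70.1 in the DfCS-Ib library, 64.1 in the HFD library and 101 in the chow library.

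Inside a library there were 0.650 Ghr counts per Igf1 count in the DfCS-Ib library (0.626 to 0.675), 1.15 in the HFD library (1.12 to 1.19) and 0.322 in the chow library (0.310 to 0.336). Receptor transcripts relative to the product of its signal were thus highest in HFD, and the DfCS-Ib library lay between the others. The same receptor set against Prlr, the gene of the related prolactin receptor, gave 5.30 in the DfCS-Ib library (4.93 to 5.71), 8.44 in the HFD library (7.89 to 9.03) and 3.28 in the chow library (3.06 to 3.53). Prlr itself had 846 counts or 78.9 CPM in the DfCS-Ib library, 967 counts or 75.1 CPM in the HFD library and 986 counts or 91.6 CPM in the chow library. It was 1.22-fold lower in HFD than in chow (1.11 to 1.33), and the DfCS-Ib over HFD ratio of 1.05 had an interval that held 1 (0.956 to 1.15).

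Igfals, on the plus strand of chromosome 17 (24877653 to 24882011), encodes the acid-labile subunit that holds IGF-1 and a binding protein in a long-lived complex in blood, and its promoter windows are among those shown. It had 609 counts or 56.8 CPM in the DfCS-Ib library, 890 counts or 69.2 CPM in the HFD library and 630 counts or 58.5 CPM in the chow library. HFD was modestly above the other libraries. Igfals was 1.22-fold lower in DfCS-Ib than in HFD (1.10 to 1.35) and 1.18-fold higher in HFD than in chow (1.07 to 1.31). The DfCS-Ib library was 1.03-fold below chow with an interval that held 1 (0.921 to 1.15). Relative to Igf1 in the same library, Igfals had 0.0883 counts per Igf1 count in the DfCS-Ib library (0.0811 to 0.0959), 0.126 in the HFD library (0.117 to 0.135) and 0.0628 in the chow library (0.0578 to 0.0680).

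Igfbp3, whose product is the main partner in that complex, had 234 counts or 21.8 CPM in the DfCS-Ib library, 242 counts or 18.8 CPM in the HFD library and 283 counts or 26.3 CPM in the chow library. Per Igf1 count this was 0.0339 in the DfCS-Ib library (0.0296 to 0.0386), 0.0343 in the HFD library (0.0300 to 0.0390) and 0.0282 in the chow library (0.0250 to 0.0317), with overlapping intervals. Igfbp4 had 14507 counts in the DfCS-Ib library, 12205 in the HFD library and 15132 in the chow library. Igfbp1, an insulin-repressed binding protein gene, and Igfbp2 varied more. Per Igf1 count, Igfbp1 stood at 0.637 in the DfCS-Ib library, 0.230 in the HFD library and 0.619 in the chow library. Igfbp2 stood at 1.49 per Igf1 count in the DfCS-Ib library, 0.669 in the HFD library and 0.835 in the chow library, so there was less of both binding protein transcripts per Igf1 transcript in HFD than in either other library. Of the 12 binding protein and protease genes 7 were measured: in DfCS-Ib against HFD, 2 were at least 2-fold higher and 1 lower (Igfbp5), with a median log2 ratio of 0.20. In HFD against chow 1 was higher and 2 lower, with a median of -0.46. That median turned to 0.01 at the highest of the settings tried. In DfCS-Ib against chow 0 were higher and 0 lower, with a median of 0.05 that changed sign with the settings. Igfbp5, a matrix-associated member, had 48 counts in the DfCS-Ib library, 195 in the HFD library and 46 in the chow library, a 3.39-fold lower level in DfCS-Ib than in HFD (2.46 to 4.75).

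The transcription factor genes other than those of STAT5 had some of the widest ratios of the axis. Bcl6, on the minus strand of chromosome 16 (23965052 to 23988612), encodes a repressor that is male-biased in mouse liver, competes with STAT5 at some sites and is itself repressed by growth hormone. It had 107 counts or 9.97 CPM in the DfCS-Ib library, 91 counts or 7.07 CPM in the HFD library and 377 counts or 35.0 CPM in the chow library. Chow stood apart and both HFD libraries were low. Bcl6 was 1.41-fold higher in DfCS-Ib than in HFD (1.06 to 1.89), 4.95-fold lower in HFD than in chow (3.93 to 6.30) and 3.51-fold lower in DfCS-Ib than in chow (2.83 to 4.40). Relative to Stat5b in the same library, there were 0.227 Bcl6 counts per Stat5b count in the DfCS-Ib library (0.182 to 0.281), 0.104 in the HFD library (0.0829 to 0.129) and 0.703 in the chow library (0.615 to 0.804).

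Cux2, on the minus strand of chromosome 5 (121857962 to 122050562), encodes a homeodomain factor that is strongly female-biased in mouse liver and is low in males. It had 6 counts or 0.559 CPM in the DfCS-Ib library, 5 counts or 0.389 CPM in the HFD library and 55 counts or 5.11 CPM in the chow library. Its ratios therefore rest on few reads. It was 13.2-fold lower in HFD than in chow (5.31 to 42.1) and 9.14-fold lower in DfCS-Ib than in chow (3.94 to 26.0), and the DfCS-Ib over HFD ratio of 1.44 had an interval that held 1 (0.366 to 5.96). A gene model on the opposite strand overlaps Cux2 and had 1, 0 and 6 counts in the DfCS-Ib, HFD and chow libraries.

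Onecut1, on the plus strand of chromosome 9 (74861921 to 74889648), encodes hepatocyte nuclear factor 6, a growth hormone responsive activator that binds some of the same sites as CUX2. It had 73 counts or 6.80 CPM in the DfCS-Ib library, 416 counts or 32.3 CPM in the HFD library and 90 counts or 8.36 CPM in the chow library. HFD stood apart from both other libraries, whose counting intervals overlapped. Onecut1 was 4.75-fold lower in DfCS-Ib than in HFD (3.70 to 6.18) and 3.87-fold higher in HFD than in chow (3.07 to 4.91). In DfCS-Ib against chow it was 1.23-fold lower, with an interval that held 1 (0.893 to 1.70).

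Its paralogue Onecut2 had 1394 counts or 130 CPM in the DfCS-Ib library, 1679 counts or 130 CPM in the HFD library and 1765 counts or 164 CPM in the chow library. Onecut2 was thus near level between DfCS-Ib and HFD, and 1.26-fold lower in HFD than in chow (1.18 to 1.34). There were 0.0524 Onecut1 counts per Onecut2 count in the DfCS-Ib library (0.0408 to 0.0663), 0.248 in the HFD library (0.222 to 0.276) and 0.0510 in the chow library (0.0408 to 0.0630). Against Cux2, Onecut1 had 12.2 counts per count in the DfCS-Ib library (5.33 to 34.2), 83.2 in the HFD library (35.4 to 258) and 1.64 in the chow library (1.16 to 2.33). The count of Onecut1 is uncertain in size: 54.4% of the 50-base windows of its longest transcript are shared with other gene models, nearly all with Gm20649. A noncoding model that overlaps it on the same strand had 24 counts in the DfCS-Ib library, 122 in the HFD library and 17 in the chow library, and was also highest in HFD.

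On the deposited RPKM averaged over the 3 libraries, the order of levels was Ghr (90.7), Igf1 (78.6), Igfals (25.9), Stat5b (9.88), Onecut1 (8.90), Bcl6 (5.21), Cish (3.64), Stat5a (2.05), Socs2 (1.48) and Cux2 (0.203). The order depends on the deposited gene lengths, which differ from the exonic lengths of the GENCODE annotation for several of the genes: Ghr is given 5025 bases against 9053, Onecut1 1824 against 4113 and Bcl6 3285 against 6700. With the GENCODE lengths, an alternative chosen after seeing the data, Igf1 (71.5 CPM per kilobase) came before Ghr (49.8) in the mean, and Socs2 (1.78) before Stat5a (1.35). Ghr was then above Igf1 in the HFD library, at 70.0 against 55.4 CPM per kilobase, and below it in the DfCS-Ib library, at 46.2 against 64.9, and in the chow library, at 33.2 against 94.2. The ratios between libraries do not depend on these lengths.

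Across the 7713 genes whose mean level reached 10 CPM, the pattern over the 3 libraries most like that of Socs2, the gene of widest range in the axis on log2(CPM + 1), was that of Bcl6, at a distance of 0.127 on centred log2(CPM + 1) values. Next came Sdsl, a serine dehydratase-like gene, at 0.182, with 222 counts in the DfCS-Ib library, 140 in the HFD library and 628 in the chow library. Sik1, a salt-inducible kinase gene, followed at 0.224, with 270, 217 and 735 counts in the DfCS-Ib, HFD and chow libraries. Within a distance of 0.2, 2 genes lay near Socs2 and 200 near Igf1. The pattern of Igf1 is thus a common one in these libraries, and the nearest to it were Gm14420, Pdgfra and Tatdn2, at 0.0201, 0.0202 and 0.0217. Likeness over 3 libraries is a description.

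Among the 19 measured of 21 other genes of growth hormone and IGF signalling, 1 was at least 2-fold higher and 0 lower in DfCS-Ib against HFD (Socs3, 3.395-fold, 2.47 to 4.74), with a median log2 ratio of 0.13. In HFD against chow 0 were at least 2-fold lower, with a median of -0.21, and in DfCS-Ib against chow 0 were higher and 0 lower, with a median of -0.03. The kinase gene Jak2 had 224 counts in the DfCS-Ib library, 329 in the HFD library and 229 in the chow library, 1.22-fold lower in DfCS-Ib than in HFD (1.03 to 1.46). The receptor genes of the products gave another order: Igf1r had 48, 43 and 68 counts, and Insr, the insulin receptor gene, had 2447, 2020 and 2739 counts, in the DfCS-Ib, HFD and chow libraries. Insr was lowest in HFD, where Ghr was highest, and was 1.45-fold higher in DfCS-Ib than in HFD (1.37 to 1.54). Igf1r also had its lowest value in HFD, but its DfCS-Ib over HFD ratio of 1.34 had an interval that held 1 (0.869 to 2.07).

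**Figure D4:**
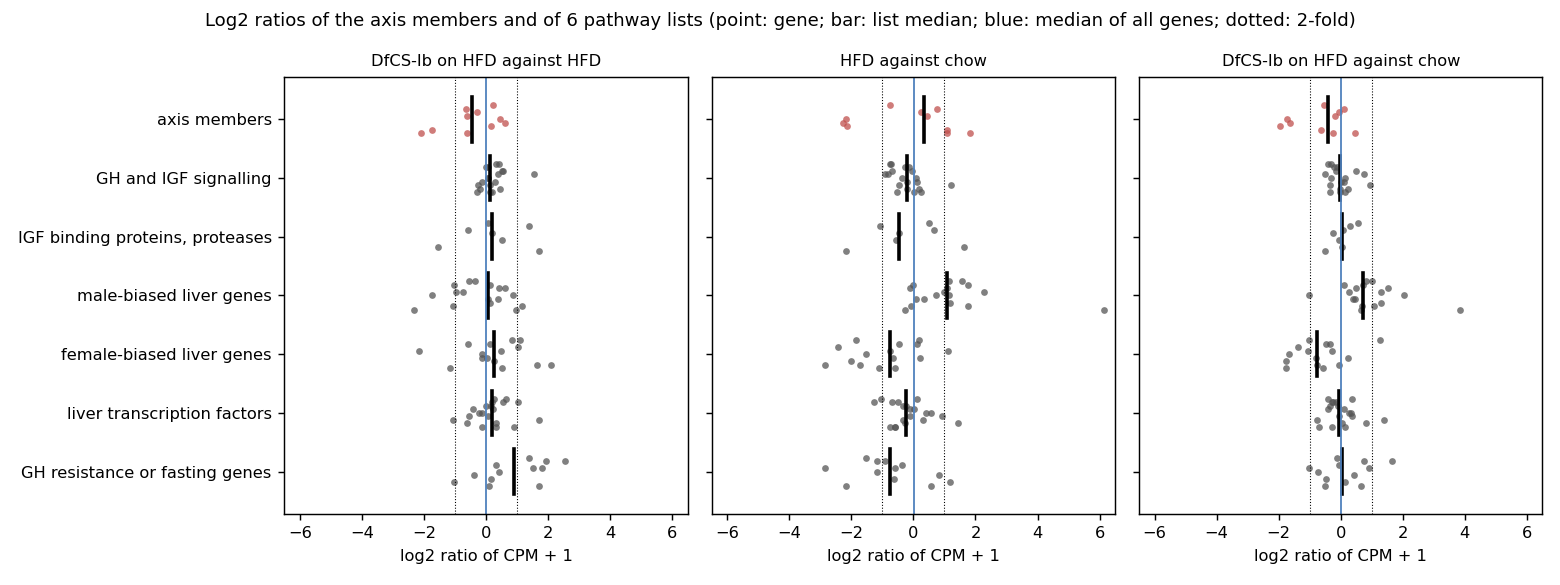
Log2 ratio of each measured gene, log2(CPM + 1), in the 6 lists of related genes and the 10 genes of the axis, in the comparisons DfCS-Ib against HFD, HFD against chow and DfCS-Ib against chow; points are genes, black bars are list medians, the blue line is the median of all genes and dotted lines mark 2-fold. The male-biased median is 1.09 in HFD against chow. The median of the genes reported to rise in growth hormone resistance or fasting is 0.91 in DfCS-Ib against HFD. Each has genes on both sides of 0.

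Of 20 male-biased liver genes, whose levels the pulses keep high in males, 17 were measured. In DfCS-Ib against HFD 1 was higher and 4 lower, with a median log2 ratio of 0.05 that turned to -0.15 at the lowest of the settings tried. In HFD against chow 10 were higher and 0 lower, with a median of 1.09, and in DfCS-Ib against chow 7 were higher and 1 lower (Cyp2u1), with a median of 0.72. Mup7, a major urinary protein gene, had 876 counts in the DfCS-Ib library, 570 in the HFD library and 208 in the chow library. It belongs to a family of near copies, whose counts are uncertain. Its relatives Mup1, Mup3 and Mup20 had at most 17 counts in any library. Serpina12, the vaspin gene, had 262, 633 and 100 counts in the DfCS-Ib, HFD and chow libraries. A model on the strand opposite Serpina12 had 37, 84 and 12. Nudt7, a peroxisomal coenzyme A hydrolase gene, was 2.07-fold lower in DfCS-Ib than in HFD (1.97 to 2.18) and 3.44-fold higher in HFD than in chow (3.24 to 3.66). Cyp7b1, an oxysterol hydroxylase gene, was 2.22-fold higher in DfCS-Ib than in HFD (2.13 to 2.32), while the HFD over chow interval held 1.

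Of 24 female-biased liver genes 15 were measured. In DfCS-Ib against HFD 4 were higher and 2 lower, with a median log2 ratio of 0.26. In HFD against chow 1 was higher and 7 lower, with a median of -0.76. In DfCS-Ib against chow 1 was higher and 6 lower, with a median of -0.76. The size of these medians moved widely with the settings. They ran from 0 to 0.67 in DfCS-Ib against HFD, from -1.79 to -0.09 in HFD against chow, and from -1.05 to -0.26 in DfCS-Ib against chow. Fmo2, a flavin monooxygenase gene, had 350 counts in the DfCS-Ib library, 198 in the HFD library and 929 in the chow library. Trim24, a transcriptional regulator gene, had 523 counts in the DfCS-Ib library, 191 in the HFD library and 551 in the chow library. Abcd2, a peroxisomal transporter gene, went the other way, with 80 counts in the DfCS-Ib library, 477 in the HFD library and 180 in the chow library. Relative to chow, the HFD library was thus high for 10 of the 17 measured male-biased genes and low for 0. It was low for 7 of the 15 measured female-biased genes and high for 1. Of all genes compared, 3.47% were at least 2-fold higher and 2.27% lower in HFD against chow. Cux2 was also low in the HFD library, but so was Bcl6, itself male-biased. Several genes of these lists belong to families of near copies, whose counts are uncertain.

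All 20 other liver-enriched transcription factor genes were measured. In DfCS-Ib against HFD 2 were higher (Cebpb and Prox1), with a median log2 ratio of 0.18, in HFD against chow 1 was higher (Foxa2) and 2 lower (Prox1 and Foxa3), with a median of -0.25, and in DfCS-Ib against chow 1 was higher (Cebpb) and 0 lower, with a median of -0.06. Foxa2, a forkhead factor gene that acts with ONECUT1 in liver, had 282 counts in the DfCS-Ib library, 526 in the HFD library and 157 in the chow library. Foxa3 went the other way, with 632, 476 and 839 counts in the DfCS-Ib, HFD and chow libraries.

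All 12 genes reported to rise in fasting or growth hormone resistance were measured, Igfbp1 among them. They are called fasting-related below for short, although the list mixes both states. In DfCS-Ib against HFD 6 were higher and 1 lower (Pparg), with a median log2 ratio of 0.91, in HFD against chow 1 was higher and 5 lower, with a median of -0.76, and in DfCS-Ib against chow 1 was higher (Fgf21) and 1 lower (Lepr), with a median of 0.04 that changed sign with the settings. Lepr, the leptin receptor gene, had 230 counts in the DfCS-Ib library, 70 in the HFD library and 483 in the chow library. Fgf21, a hepatokine gene, had 101 counts in the DfCS-Ib library, 10 in the HFD library and 25 in the chow library. The labels give free access to food and no hour of collection.

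Markers of other cells also differed between libraries. The 7 macrophage and Kupffer cell markers were all above 0 on the log2 scale in DfCS-Ib against HFD, 2 of them at least 2-fold, and summed to 604 CPM in the DfCS-Ib library, 339 CPM in the HFD library and 276 CPM in the chow library; none of the 7 was at 0. The 6 stellate cell markers summed to 362 CPM in the DfCS-Ib library, 251 CPM in the HFD library and 313 CPM in the chow library, and the 6 endothelial markers to 304, 260 and 273 CPM in the same libraries. The 4 adipocyte markers summed to 0.280 CPM in the DfCS-Ib library, 6.14 CPM in the HFD library and 0.0929 CPM in the chow library, nearly all of it from Cfd, with 3, 77 and 1 counts. The defining markers Adipoq and Plin1 had at most 1 count in any library and Lep was at 0 in all. The part of these cells in the ratios of the axis was not tested.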

How the data were processed

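Total RNA from liver was sequenced, 1 library per group. The authors deposited, per the file headers, raw read counts per gene and the RPKM made from them, with mm10 positions. The submitters' processing notes name TopHat2 and the mm10 build. Which tool counted the reads, with what strand setting and annotation, is not given in the sources used here.

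Counts were scaled with TMM factors (edgeR 4.0.16 in R 4.3.3) and log2 ratios taken on CPM + 1 for genes whose mean level reached 1 CPM. Ratios have 95% Clopper-Pearson intervals for the split of 2 counts, in Python 3.11.15; intervals and the floor of 3 counts cover counting error only. With 1 library per group no test was made. The steps were tested on simulated data. Alternatives were no scaling factors, DESeq2 1.42.0 size factors, the deposited RPKM, other pseudocounts, filters and folds, and leaving out the 50 most abundant genes.

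The 10 genes and the lists were chosen with earlier results of these data known. Named beside them were list genes of largest log2 ratio, up to 3 per direction, comparison and list, among those at least 2-fold apart, and preset genes: Jak2, Prlr, Igf1r, Insr, Socs1, Socs3 and Igfbp1 to Igfbp4. Outside this rule, Onecut2 is named as a partner in a ratio inside a library. Socs7, Mup1, Mup3 and Mup20 are named beside other members of their families. The 6 lists hold 108 genes, of which 4 were listed at 0 in every library, which does not show that they are not expressed. Results for some list genes are not reported here. Shared 50-base windows were counted in GENCODE vM21 transcripts.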

Additional observations from a re-analysis of the deposited data

How the results depend on the processing

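No paired analysis was possible because each group has 1 library and the labels give no replicate numbers. Of the 30 ratios of the 10 genes, 0 changed sign under the alternatives, and with 2-fold kept as the limit 2 changed side: Cux2 against chow in both HFD libraries, with the deposited RPKM. At 1.5-fold, 1 of the 10 genes was higher and 5 were lower in DfCS-Ib against HFD. Over all genes, the split in DfCS-Ib against HFD was 324 higher and 266 lower, or 54.9% higher, against 43.4% without scaling factors (261 and 340) and 42.9% with the RPKM (176 and 234). In HFD against chow it was 457 and 298, or 60.5% higher, against 70.3% (573 and 242) and 70.9% (404 and 166). The median of all genes went as far as -0.10 in DfCS-Ib against HFD and 0.11 in HFD against chow. In DfCS-Ib against chow the split of 213 and 57 became 125 and 31 with the RPKM, 140 and 30 at a minimum of 5 CPM, 103 lower with a pseudocount of 0.5 and 114 lower without the 50 most abundant genes. With no pseudocount, 535 and 442 genes were higher and lower in DfCS-Ib against HFD, 748 and 491 in HFD against chow, and 476 and 191 in DfCS-Ib against chow. At 1.5-fold these were 1002 and 942, 1370 and 1015, and 748 and 402.

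The counts of the lists of other genes also moved. In DfCS-Ib against HFD, the liver-enriched factors had 1 higher without scaling factors, 1 higher and 0 lower with the RPKM, 0 lower at 5 CPM, and 4 higher and 2 lower at 1.5-fold. The male-biased genes had 3 higher with no pseudocount and 4 at 1.5-fold, the female-biased genes 2 higher and the fasting-related genes 0 lower with the RPKM, and the binding proteins 2 lower without the 50 most abundant genes. In HFD against chow, the liver-enriched factors had 2 higher and 1 lower without scaling factors, 1 lower with the RPKM, and 2 higher and 6 lower at 1.5-fold. The binding proteins had 1 lower without scaling factors and with the RPKM, and 2 higher with no pseudocount, without the 50 most abundant genes and at 1.5-fold. The female-biased and fasting-related genes had 0 higher with the RPKM, the fasting-related genes 2 higher at 1.5-fold, and the signalling genes 5 lower at 1.5-fold. In DfCS-Ib against chow, the male-biased genes had 0 lower with the RPKM and 11 higher at 1.5-fold, and the female-biased genes 0 higher with the RPKM and at 5 CPM. There the fasting-related genes had 0 lower with the RPKM, 0 higher at 5 CPM, and 4 higher and 2 lower at 1.5-fold, the signalling genes 2 higher at 1.5-fold, and the liver-enriched factors 1 lower with no pseudocount and 2 higher and 2 lower at 1.5-fold. The cause of these moves was not tested. Counting error is wide for Cux2 and Socs1, and no alternative stands in for replicate animals.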
